A study of Mus musculus with 354 samples.

Results

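Expression of 52 genes of G2 phase and mitosis was followed in single cells sorted from the cochleae of newborn mice. The genes, called members here, were taken as a fixed list and found by symbol, and all 52 were among the 55367 genes of the count files. The study asked how supporting cells, the non-sensory cells that surround the hair cells of the organ of Corti, respond to the growth factor receptor ERBB2. All pups carried the driver Fgfr3-iCre together with the reporter ROSA-floxed-rtTA/GFP, which makes rtTA and GFP once Cre has acted. CA-ERBB2 pups also carried TetON-CAERBB2, which encodes a constitutively active ERBB2 made only in the presence of doxycycline, and Control littermates lacked it. The protocol gives tamoxifen at 75 mg/kg on P0 and P1 and doxycycline at 100 mg/kg on P2, with collection on P3. The treatment entry itself is present in the labels of the CA-ERBB2 cells only. Cells of several pups were pooled for each sort, the Fgfr3-iCre driver was sparse and biased to the apical turn, and GFP-positive cells were sorted 1 per well. Each genotype has 3 plates with 59 wells analysed on each, and the plate is the replicate.

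A cell that leaves G2 activates the kinase CDK1 with its B cyclins, condenses its chromosomes, attaches them through kinetochores to a spindle of microtubules and motors, and then destroys the cyclins by ubiquitination through the anaphase-promoting complex. Many genes of this programme are transcribed together late in the cycle, with NF-Y bound at CCAAT boxes and the DREAM and MYBL2-FOXM1 complexes at the cell cycle homology region, called CHR. In the organ of Corti supporting cells have left the cell cycle before birth, while mesenchyme, glia and vessels of the young cochlea still hold dividing cells.

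Total counts per cell ran from 1443 to 5178221 with a median of 2866362, and 35 cells had fewer than 100000 counts, 33 of them in Control. Gene content differed among plates much more than depth. The median cell had 10198 genes detected on CA-ERBB2 plate 1 and 8679 on Control plate 1, but between 1742 and 2954 on the other 4 plates. The 24 wells A12 to D12 had a median of 15538 genes against 3244 in the other wells, and no source used here gives a reason. Both differences touch each count of members per cell, so values are given by plate and with these wells named.

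The start of the promoter is shown for 7 members that stand for the roles compared here, since the members were often found together. RefSeq promoters (GRCm38.p6) were matched for 46 of the 52 symbols. The CHR core TTTGAA, counted on both strands, occurred in the 250 bases before the start in 19 of the 46 members (41.3%) and in 18.3% of all 27025 genes with a promoter. The CCAAT box, counted on both strands, occurred in 36 members (78.3%) and in 37.5% of all genes. Both kinds occurred in 17 members (37.0%) and in 6.45% of all genes. The CHR core was in 8 of the 13 matched members listed below as widely used outside division (61.5%) and in 11 of the other 33 (33.3%). For both kinds together these shares were 53.8% and 30.3%. TTCGAA, a related core that reads the same on both strands, occurred in 3 members (6.52%) and in 1.55% of all genes. The 120 bases before the start are printed for Mki67 (chr7:135716380-135716499), Top2a (chr11:99024190-99024309), Cdk1 (chr10:69352913-69353032), Ccnb1 (chr13:100786487-100786606), Cenpf (chr1:189688087-189688206) and Tubb4b (chr2:25224703-25224822), all on the minus strand, and for Ube2c (chr2:164769809-164769928), on the plus strand. They read 5′ to 3′ in the direction of the gene, and capitals mark these motifs.
Mki67: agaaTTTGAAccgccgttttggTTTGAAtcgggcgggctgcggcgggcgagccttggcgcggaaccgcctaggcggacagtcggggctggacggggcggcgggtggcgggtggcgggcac
Top2a: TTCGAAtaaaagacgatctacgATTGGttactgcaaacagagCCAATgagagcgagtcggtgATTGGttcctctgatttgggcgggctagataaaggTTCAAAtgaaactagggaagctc
Cdk1: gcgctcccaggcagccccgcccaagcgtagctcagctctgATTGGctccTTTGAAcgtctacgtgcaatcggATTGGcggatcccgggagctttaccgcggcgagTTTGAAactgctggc
Ccnb1: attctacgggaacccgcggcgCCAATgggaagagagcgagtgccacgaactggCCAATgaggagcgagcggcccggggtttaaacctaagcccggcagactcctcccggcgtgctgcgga
Cenpf: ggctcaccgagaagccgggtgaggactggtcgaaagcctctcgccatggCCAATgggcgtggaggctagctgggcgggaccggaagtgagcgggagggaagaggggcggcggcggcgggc
Ube2c: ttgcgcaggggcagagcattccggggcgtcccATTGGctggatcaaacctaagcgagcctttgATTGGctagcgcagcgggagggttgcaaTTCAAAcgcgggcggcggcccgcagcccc
Tubb4b: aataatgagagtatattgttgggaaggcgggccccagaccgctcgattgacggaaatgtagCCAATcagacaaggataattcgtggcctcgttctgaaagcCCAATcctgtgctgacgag
The windows of Top2a, Cdk1 and Ube2c hold both a CHR core and CCAAT boxes, that of Mki67 holds CHR cores only, and those of Ccnb1, Cenpf and Tubb4b hold CCAAT boxes only. A match is a description of the letters and not a shown site of binding.

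Members were detected sparsely, and detection followed the gene content of the plate. The median cell had at least 1 count of 16, 4 and 3 members on CA-ERBB2 plates 1, 2 and 3, and of 13, 3 and 2 members on the Control plates in the same order. No member at all was detected in 33 cells, 12 of them on Control plate 2 and 10 on Control plate 3. With each of the 319 deeper cells thinned to 100000 counts the median cell had 13, 3 and 2 members on the CA-ERBB2 plates and 10, 5 and 2 on the Control plates. Plates 1 stayed the highest of their genotype after thinning. The cells left out of thinning included 23 of the 59 on Control plate 2, so its median before and after covers different cells.

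The members were divided into 14 listed as widely used outside division and 38 others. The 14, among them a tubulin, chromatin proteins, envelope proteins and also genes of the cycle itself such as Cks1b, were detected in a median of 41.4% of all cells (20.3% to 55.9%). The other 38 had a median of 9.61% (5.37% to 43.8%). The list was drawn up with earlier results of these data known, so this split is partly built in, and the ranges overlap. Detected in most cells were Tubb4b, a beta-tubulin (55.9%), Hmgb2, a chromatin protein that bends DNA (54.2%), Cbx5, the heterochromatin protein HP1 alpha (53.7%), Anp32e, a chaperone that removes the histone H2A.Z (52.8%), and Cks1b, a small subunit of cyclin-dependent kinases (44.9%). Detected in fewest were Nek2, a centrosome kinase (5.37%), Cdc25c, the phosphatase that activates CDK1 (5.65%), Cdca2, which brings phosphatase PP1 to chromatin (5.65%), Bub1, a spindle checkpoint kinase (5.93%), and Gtse1, a microtubule protein of G2 (5.93%). A total of 20 members were detected in under 10% of cells.

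**Figure D1:**
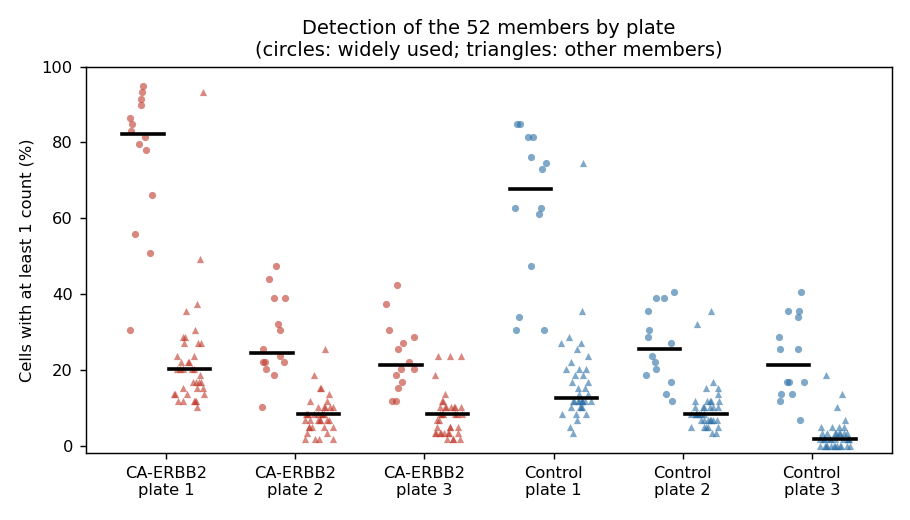
Share of cells with at least 1 count (vertical axis, percent) for each of the 52 members on each plate of 59 cells, with circles for the 14 widely used members, triangles for the other 38 and black lines at the medians. The widely used members have medians of 82.2% and 67.8% on plates 1 of CA-ERBB2 and Control and of 21.2% to 25.4% on the other plates.

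Detection by plate showed the same split in single genes. Tubb4b was detected in 91.5%, 44.1% and 42.4% of cells on CA-ERBB2 plates 1 to 3 and in 81.4%, 40.7% and 35.6% on Control plates 1 to 3. Hmgb2 was detected in 93.2%, 47.5% and 28.8% of CA-ERBB2 cells and in 84.7%, 35.6% and 35.6% of Control cells. Mki67, the proliferation antigen that coats mitotic chromosomes, was detected in 22.03%, 11.9% and 1.69% of CA-ERBB2 cells and in 10.2%, 8.47% and 1.69% of Control cells. For these 3 genes the plates of the genotypes overlapped, and plate 1 was the highest of its genotype. Control plate 3 stood lowest for the members that are not widely used, with a median of 1.69% of cells detected per member. There 12 members had no count in any of the 59 cells, and such a 0 still permits a share of as much as 5.08%, counting error only.

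Few cells held many members together. With a member taken as present at 10 CPM (counts scaled to 1000000 per cell) and many taken as 15 of 52, there were 17, 3 and 5 such cells on CA-ERBB2 plates 1 to 3 and 10, 8 and 1 on Control plates 1 to 3. The mean share was 14.1% ± 12.8 (SD, n = 3 plates) in CA-ERBB2 and 10.7% ± 8.01 (SD, n = 3 plates) in Control, a difference inside the spread between plates. Of these 44 cells, 27 lay on the plates 1 and 17 in wells A12 to D12, and only 8 lay in neither. At the limit itself, 8 cells had exactly 15 members and 11 had 14, so the number of cells at this level depended on where the line was drawn.

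A level 10 times higher separated the cells cleanly. At 100 CPM, 12 cells had 24 to 51 members, the next cell had 14, and 315 cells had 5 or fewer. The 12 cells were 4, 0 and 1 on CA-ERBB2 plates 1 to 3 and 4, 3 and 0 on Control plates 1 to 3. As a share this was 5 of the CA-ERBB2 cells (2.82%, 95% Clopper-Pearson interval 0.923% to 6.47%) and 7 of the Control cells (3.95%, 1.61% to 7.98%), and the interval covers counting error only. Over plates the shares were 2.82% ± 3.53 and 3.95% ± 3.53 (SD, n = 3 plates each). Of the 12 cells, 2 came from wells A12 to D12, both of Control, and without these wells the count was 5 in each genotype. Thinned to 100000 counts, all 12 still had 31 to 52 members at 1 count, but so did some gene-rich cells outside them, which reached up to 50. The 12 cells all had both Mki67 and Top2a at 10 CPM or more. At that level both genes were found together in 11 CA-ERBB2 and 8 Control cells.

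**Figure D2:**
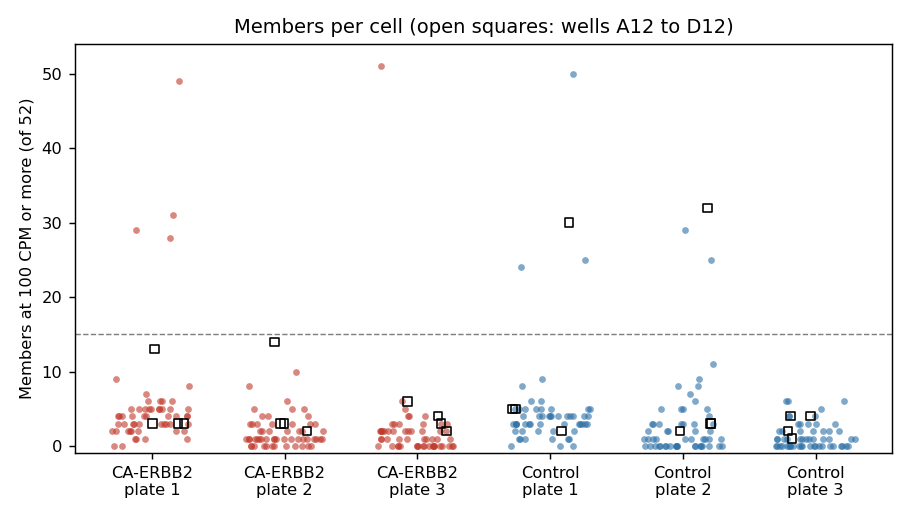
Number of members at 100 CPM or more (vertical axis, of 52) in each cell by plate, with open squares for wells A12 to D12 and a dashed line at 15. The 12 cells above the line have 24 to 51 members and all others have 14 or fewer.

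Among the 12 cells 3 stood apart from the other 9. The cells in well B5 of CA-ERBB2 plate 1, well E11 of CA-ERBB2 plate 3 and well E3 of Control plate 1 had 49, 51 and 50 members at 100 CPM. In these cells the members took 3.61%, 2.90% and 3.48% of all counts. The other 9 cells had 24 to 32 members, and a median cell of the remaining 342 gave 0.0939% of its counts to members. Both genotypes held cells with nearly the whole list at 100 CPM. At 10 CPM the cells in well A12 of Control plate 1 and well C12 of Control plate 2 also held 51 and 52 members.

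The mitotic kinases and cyclins differed widely among the 12 cells. Cdk1, the kinase that drives entry into mitosis, was at 100 CPM or more in all 12, with a lowest level of 207.5, a median of 529 and a highest of 1788 CPM. Ccnb1, its cyclin B1 partner, was at that level in 6 of the 12 and ran from 0 through a median of 97.2 to 1445 CPM. The highest Ccnb1 levels lay in the 3 cells with 49 to 51 members at 100 CPM, at 1445, 955.5 and 308.6 CPM. Ccnb2, cyclin B2, passed 100 CPM in 9 cells, Aurkb, the kinase of the chromosomal passenger complex, in 8, and Bub1 and Ttk, both checkpoint kinases, in 6 each. Aurka, a spindle pole kinase, and Nek2 passed it in 3, and Cdc25c in 4.

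Of the genes of cyclin destruction, Ube2c, the ubiquitin-conjugating enzyme of the anaphase-promoting complex, ran from 0 through a median of 183.6 to 2063 CPM in the 12 cells. It passed 100 CPM in 7 of them, Cdc20, an activator of that complex, in 6, and Cdca3, a trigger of mitotic entry, in 10. The highest Ube2c level was in well A8 of Control plate 2, where Ccnb1 had no count and Cenpa, the centromeric histone variant, reached its highest level of all cells at 2655 CPM.

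At the centromere and kinetochore, Birc5, the survivin subunit of the passenger complex, was at 100 CPM or more in all 12 cells with a median of 312.8 CPM. Cenpe, a kinetochore motor, passed that level in 11 and Nuf2, a subunit of the NDC80 complex, in 9, whereas Ndc80 itself did so in 4. Among spindle genes Nusap1, which bundles microtubules, passed it in 11 and Tpx2, which activates Aurora A, in 10, while Gtse1 did so in 1. On chromatin Top2a, which untangles DNA, Mki67 and Hmgb2 passed it in all 12. Top2a had a lowest level of 283.4, a median of 1015 and a highest of 1764 CPM, and Mki67 had 173.6, 776.7 and 2344 CPM. On a scale per kilobase of exon, the median levels in the 12 cells were 112.7 CPM for Top2a, 77.2 for Mki67, 107.2 for Cdk1 and 23.0 for Ccnb1, so that of these 4 Ccnb1 was lowest.

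**Figure D3:**
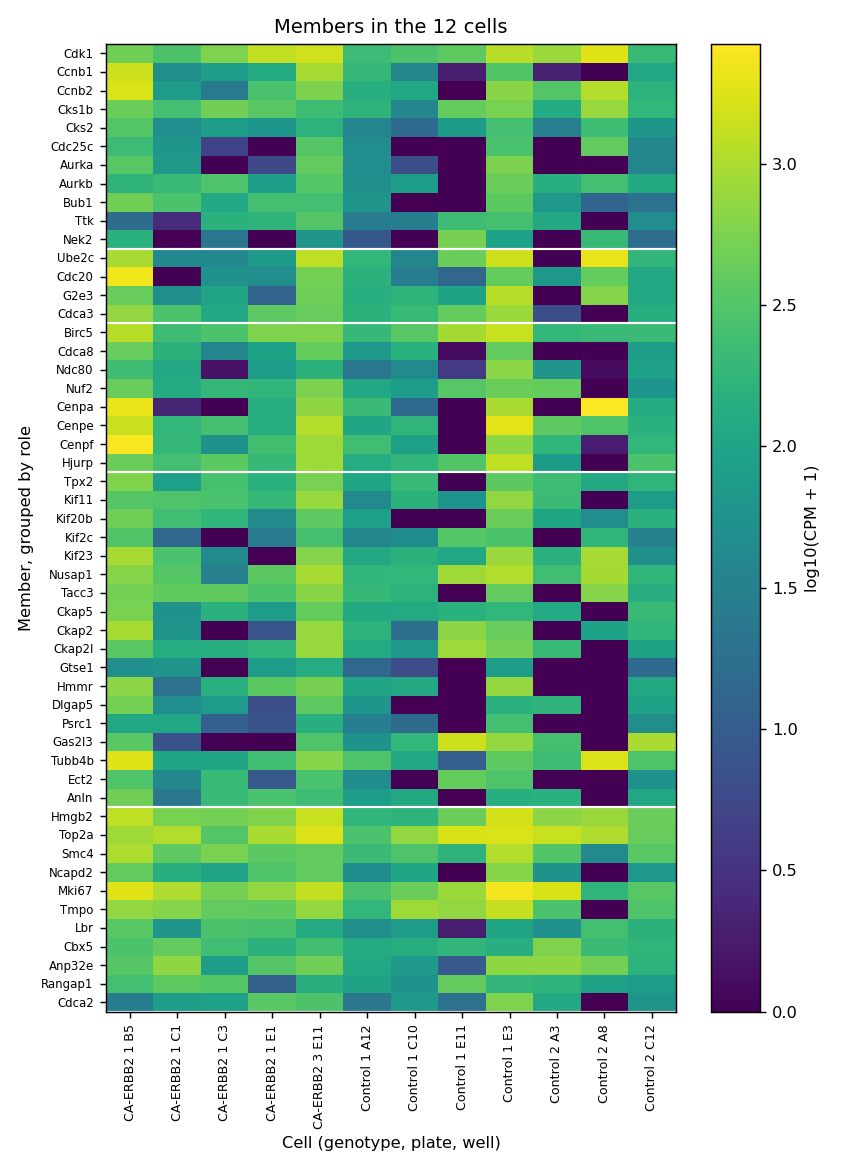
Level of each member (rows, grouped by role between white lines in the order kinases and cyclins, degradation, centromere and kinetochore, spindle and cytokinesis, chromatin and envelope) in the 12 cells (columns, by genotype, plate and well), as log10(CPM + 1). The columns CA-ERBB2 1 B5, CA-ERBB2 3 E11 and Control 1 E3, with 49, 51 and 50 members at 100 CPM, are high nearly throughout. Control 1 A12 and Control 2 C12 are filled too, at lower levels. The remaining columns have gaps at genes such as Gtse1, Nek2 and Ccnb1.

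Most transcripts of the members that are not widely used came from these 12 cells. Together they held 66.6% of all counts of the 38 genes and 18.3% of those of the 14 widely used genes. Ckap2l, a mitotic spindle protein, had 94.3% of its counts there, Nusap1 91.7%, Ccnb1 88.1%, Top2a 87.8% and Mki67 85.9%. Tubb4b had 7.52% and Cbx5 7.56%. More than 50% of the counts lay in the 12 cells for 33 of the 52 members, none of them widely used, and for 1.17% of all genes tested, a share that the choice of the cells by the members fixes in part. The plate sums of the 38 genes were 1001, 552.0 and 845.9 CPM on CA-ERBB2 plates 1 to 3 and 1224, 1351 and 77.6 CPM on Control plates 1 to 3. Control plate 3 was far below all others, and CA-ERBB2 plate 2 and Control plate 3 held none of the 12 cells.

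Genes of the cell cycle outside the list divided the 12 cells further. The 43 other mitotic genes had 7 to 37 at 100 CPM in the 12 cells and a median of 0.5 in the other 342. Bub3, a checkpoint protein, was at that level in all 12 and in 102 of the others. Smc2, a condensin subunit, was so in all 12 and in 20 of the others, and Ccna2, cyclin A2, in 11 and in 11 of the others. Of 47 genes of S phase, 20 or more were at 100 CPM in 6 of the 12 cells and in 2 of the other 342. The 3 cells with 49 to 51 members had 4, 16 and 13 of these, and the cell in well A8 of Control plate 2 had 2. Pcna, the replication clamp, reached 529.6 to 1522 CPM in the 6 cells rich in S phase genes and 0 to 156.4 CPM in the other 6. The 2 cells outside the 12 that were rich in S phase genes had at most 8 members at 100 CPM, and 21 and 26 at 10 CPM.

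Markers of supporting cells were mixed in the 12 cells. The 12 had a median of 10175.5 genes detected against 3426 in the other 342. The marker contrasts here and below were not adjusted for this difference. Of the 12 supporting cell genes examined, 0 to 9 were at 100 CPM, with 9 in the cell of well A12 of Control plate 1 and 5 or fewer in the others. That well, 1 of the gene-rich wells, had 16334 genes detected. It also held all 8 mesenchyme genes and 4 of the 8 greater epithelial ridge genes described below at 100 CPM, so its markers do not single out a cell type. The median was 2.5 genes in the 12 against 1 in the other 342, and the summed level had a range of 101.6 to 2143 CPM with a median of 1016 in the 12 against a median of 442.0 in the others. Cryab, a small heat shock protein, reached 100 CPM in 8 of the 12 and in 112 of the others, with medians of 262.9 and 0 CPM. S100b, a calcium-binding protein that glia also make, did so in 6 and in 112, with medians of 67.9 and 6.45 CPM. Fgfr3, the gene whose promoter drove the Cre, and Epcam, an epithelial adhesion protein, each reached 100 CPM only in the cell of well A12 of Control plate 1. Among the other 342 cells Fgfr3 reached it in 64 and Epcam in 86. Sox10, which glia and cochlear epithelium share, reached it in 7 of the 12 and in 47 of the others.

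Markers of other cell types were present. Of 8 genes of the greater epithelial ridge, another part of the cochlear epithelium, 4 or more were at 100 CPM in 3 of the 12 cells and in 35 of the others. The summed level of these genes had medians of 1045 and 1306 CPM. At least 2 of 3 glia genes were at 100 CPM in 4 of the 12 cells and in 6 of the other 342, and their summed level had a range of 0 to 3028 CPM with a median of 275.7 in the 12 against a median of 0 in the others. Foxd3, a transcription factor of neural crest and early Schwann cells, reached 100 CPM in 3 of the 12 and in 2 of the others. Of the 8 mesenchyme genes, 4 or more were at 100 CPM in 6 of the 12 and in 106 of the others, and the summed level had medians of 4121 and 2107 CPM. Col1a2, a collagen chain of connective tissue, passed 100 CPM in all 12 and in 179 of the others, with medians of 2277 and 241.5 CPM. The rest of the mesenchyme list passed it in 3 (Twist1) to 11 (Col3a1) of the 12. The 4 endothelial genes all passed it in the cell of well A8 of Control plate 2, and no macrophage or erythroid gene did so in any of the 12. Of the 8 hair cell genes, Pou4f3, Atoh1, Gfi1 and Insm1 had no count in any of them. Myo6, an unconventional myosin of hair cells that many other cells also use, reached 100 CPM in 6 of the 12 and in 112 of the others, with medians of 71.9 and 0 CPM. The summed level of the hair cell genes had a range of 0 to 454.2 CPM with a median of 76.7 in the 12 against a median of 0.431 in the others. How far the cell types of the sorted cells set the presence of mitotic genes was not tested.

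Cells of the osteopontin network, defined by Spp1, Timp1, Mmp9 and Dmp1 all at 100 CPM, were not among the 12. None of the 36 network cells was, and a count of 0 still permits a share of as much as 8.33%. That limit lies above the 2.82% of all CA-ERBB2 cells that were among the 12, so the 0 does not set network cells apart. The network cells had a median of 2 members at 100 CPM, as did the other CA-ERBB2 cells, and at most 14. At 10 CPM 8 of the 36 held 15 or more members, most of them in wells A12 to D12. Of all CA-ERBB2 cells 25 did (14.1%). The paper reports enrichment of cells in S and G2/M phase in its cluster S4, where it found the network genes enriched. Cluster membership was not tested here.

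Some members were common in cells without counts of Mki67 and Top2a. In 282 cells neither Mki67 nor Top2a had a count, and in 24 both did. The first had a median of 2924 genes and 4 members detected, and the second of 12264 genes and 46.5 members. Detected in the 282 cells were Tubb4b in 48.6%, Hmgb2 in 46.1%, Cbx5 in 46.1%, Anp32e in 45.0%, Cks1b in 34.4%, Hjurp, the chaperone of the centromeric histone, in 34.4%, and Ckap5, a microtubule polymerase, in 33.3%. In the 24 cells these shares were 91.7% to 100%. Only Tubb4b and Cbx5 were detected in at least 25% of such cells on each of the 6 plates, with lowest shares of 30.9% and 25.5%, against 7.72% of all genes tested. After thinning only Tubb4b was (lowest share 36.5%), and Cbx5 had a lowest share of 22.6%. Without CA-ERBB2 plate 3, Hmgb2 and Anp32e passed as well.

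Hjurp, with its role in loading CENP-A, was the exception among the members not counted as widely used. It was detected in 43.8% of all cells, in 93.2%, 25.4% and 18.6% of cells on CA-ERBB2 plates 1 to 3 and in 74.6%, 32.2% and 18.6% on Control plates 1 to 3. In the cells without Mki67 and Top2a its share ran from 13.7% to 88.2% among plates, and 32.7% after thinning. No annotated exon of another gene overlaps it. Nusap1 was detected in 17.4% of the 282 cells but in 5.51% after thinning, and in the cells outside the 12 that held it the median was 2 reads. Its exons overlap those of Oip5 on the opposite strand.

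**Figure D4:**
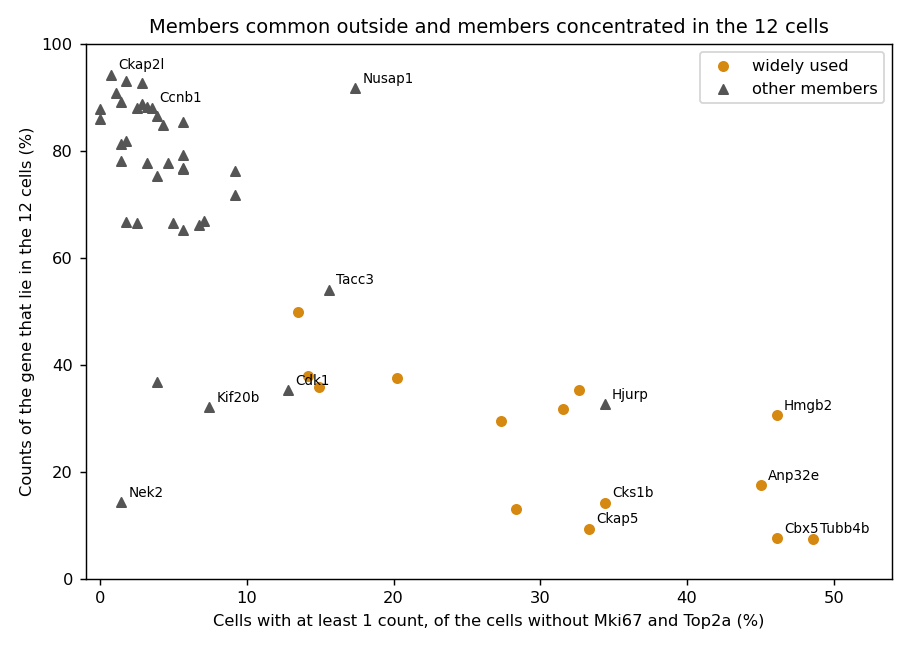
Share of the 282 cells without Mki67 and Top2a that had at least 1 count of each member (horizontal axis, percent) against the share of that member's counts that lay in the 12 cells with 24 to 51 members at 100 CPM (vertical axis, percent), with circles for widely used and triangles for other members. Tubb4b and Cbx5 lie at the lower right (48.6% and 46.1% detected, 7.52% and 7.56% of counts), Ckap2l at the upper left (0.709% and 94.3%), and Nek2 at the lower left (1.42% and 14.3%).

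A member could also be very high in a single cell without the rest of the list. For 23 members, 12 widely used and 11 others, the highest CPM lay outside the 12 cells, among them Nusap1 and Ckap2 in cells with only 1479 and 1443 counts in all. The cell with most counts of the gene lay outside for 14. Nek2 reached 8630 CPM in well A1 of Control plate 2, which held 84.5% of all its counts and had 1 other member at 100 CPM. Cbx5 reached 33127 CPM in well D1 of Control plate 2 and Ckap5 11530 CPM in well D3 of Control plate 3, both with 0 other members at 100 CPM. Cdk1 reached 6642 CPM in well E3 of CA-ERBB2 plate 2, with 2 others, and Kif20b, a cytokinesis motor, 5934 CPM in well E1 of that plate, with 4 others. Single cells set several plate sums, among them 90.1% of Cdk1 on CA-ERBB2 plate 2 and 96.1% of Nek2 on Control plate 2.

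Counts summed over the cells of each plate were compared between genotypes with edgeR's quasi-likelihood test across 21416 genes, with Benjamini-Hochberg adjusted p under 0.05 as the limit. All 52 members were tested and none was called, against 0.00467% of all genes tested. At an unadjusted p under 0.05 there were 2 members, Cks1b higher and Nek2 lower, against 5.16% of all genes tested. DESeq2 called 1 member, Nek2, and 1.1% of all genes. The fold change was above 0 for 29 members and below 0 for 23, and 50.8% of all genes tested were below 0. The median log2 fold change was 0.27 over the members and -0.02 over all genes tested, with single members from -5.41 to 2.12 and a median standard error of 1.22. Without Control plate 3 the median over the members was -0.07 and without the 12 cells it was 0.63. The 12 cells were chosen by the members, so the value without them is fixed in part by that choice. A plate sum alone does not tell fewer dividing cells from less RNA per cell, and the counts of cells are given above.

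Plate values are given below as CPM scaled by TMM factors, the scale of that test. Mki67 stood at 53.7, 47.8 and 44.2 on CA-ERBB2 plates 1 to 3 and at 72.7, 69.7 and 0.0579 on Control plates 1 to 3. Its log2 fold change was 0.03 ± 1.33 (SE, edgeR unadjusted p = 0.981), and Control plates lay on both sides of CA-ERBB2. Top2a stood at 46.1, 7.88 and 72.8 in CA-ERBB2 and at 77.6, 91.1 and 10.5 in Control, a log2 fold change of -0.50 ± 0.90 (SE, edgeR unadjusted p = 0.589). Both differences were smaller than the spread among plates.

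Cdk1 stood at 60.0, 251.8 and 280.5 in CA-ERBB2 and at 52.5, 114.9 and 5.32 in Control. Its log2 fold change was 1.78 ± 0.93 (SE, edgeR unadjusted p = 0.0851, adjusted p = 0.911), with CA-ERBB2 plate 1 inside the Control range. Without the 12 cells it was 3.25 ± 0.94 (SE). Those cells were chosen by the members, Cdk1 included, so this value is fixed in part by the choice and no p is given. Single cells outside the 12 held 90.05% of the Cdk1 counts on CA-ERBB2 plate 2 and 62.35% on plate 3. Ccnb1 stood at 19.4, 8.44 and 35.6 in CA-ERBB2 and at 10.1, 4.52 and 0 in Control, with a log2 fold change of 2.12 ± 1.61 (SE, edgeR unadjusted p = 0.216). The genotypes overlapped for both genes.

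Ube2c stood at 15.3, 10.6 and 57.9 in CA-ERBB2 and at 43.9, 72.6 and 0.190 in Control, with a log2 fold change of -0.48 ± 1.32 (SE, edgeR unadjusted p = 0.723). Tubb4b stood at 281.3, 186.1 and 420.9 in CA-ERBB2 and at 157.6, 484.5 and 325.6 in Control, with a log2 fold change of -0.12 ± 0.55 (SE, edgeR unadjusted p = 0.827). The plates of both genotypes were mixed for these genes, and the direction turned for both in limma on plate means of log values.

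In 3 members all CA-ERBB2 plates lay above all Control plates, against 4.2% of all genes tested, and in none did all lie below, against 4.88%. Bub1 stood at 14.2, 14.3 and 9.10 in CA-ERBB2 and at 8.84, 4.07 and 0 in Control (log2 fold change 1.54 ± 1.62 SE, edgeR unadjusted p = 0.364). Cdc20 stood at 30.4, 29.4 and 28.9 in CA-ERBB2 and at 14.8, 20.6 and 0.190 in Control (1.32 ± 1.15, edgeR unadjusted p = 0.275). Cenpf, a large kinetochore protein, stood at 34.1, 31.9 and 52.1 in CA-ERBB2 and at 23.6, 24.5 and 0.116 in Control (1.29 ± 1.21, edgeR unadjusted p = 0.311). For Bub1 the gap between the genotypes was that of 9.10 against 8.84, and for all 3 genes the lowest value was that of Control plate 3.

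Cks1b stood at 76.7, 246.8 and 269.9 in CA-ERBB2 and at 88.1, 69.9 and 43.4 in Control, a log2 fold change of 1.56 ± 0.59 (SE, edgeR unadjusted p = 0.0238, adjusted p = 0.911). CA-ERBB2 plate 1 lay among the Control plates and plates 2 and 3 above them. Nek2 stood at 2.66, 0.238 and 2.12 in CA-ERBB2 and at 10.2, 203.5 and 0.124 in Control, a log2 fold change of -5.41 ± 1.92 (SE, edgeR unadjusted p = 0.0174, adjusted p = 0.911). Without the single cell in well A1 of Control plate 2 the Nek2 fold change was -1.88 (edgeR unadjusted p = 0.259), and without that plate it was -1.64. Both genes were named for their p after their values were seen.

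**Figure D5:**
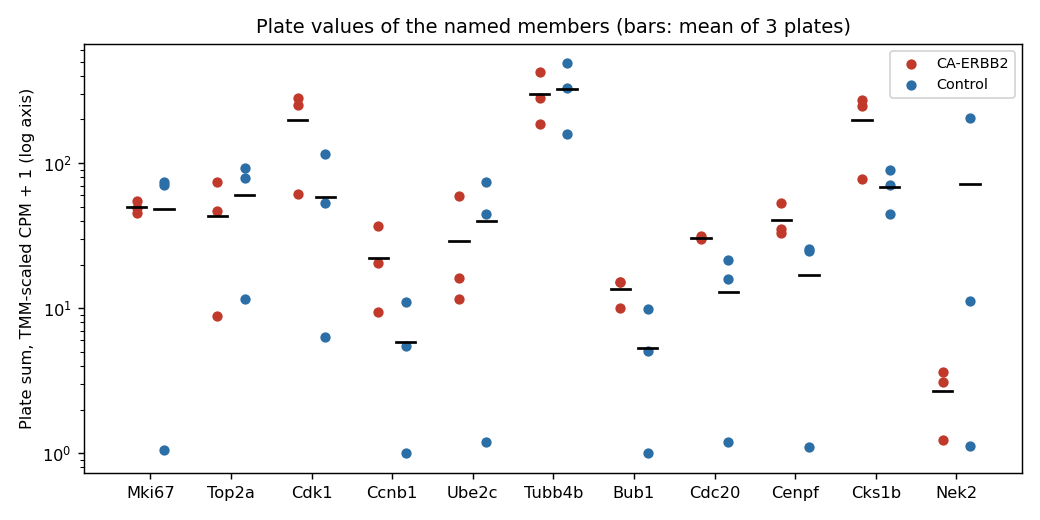
Plate sums of 11 members as TMM-scaled CPM + 1 on a log axis, 3 CA-ERBB2 and 3 Control plates per gene, with bars at the means. Control plate 3 is near 1 for Mki67, Ccnb1, Ube2c, Bub1, Cdc20 and Cenpf, and a single Control plate at 203.5 CPM sets the mean of Nek2.

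By role the medians of the fold changes lay on both sides of 0. The log2 median was 0.98 over the 11 kinases and cyclins, -0.16 over the 4 genes of degradation, -0.16 over the 8 of centromere and kinetochore, 0.43 over the 18 of spindle and cytokinesis and -0.16 over the 11 of chromatin and envelope, with -0.02 over all genes tested. The other genes of the cycle gave no call either. Of the 43 other mitotic genes, 28 had a fold change above 0 and 15 below (median 0.38), with 0 above and 1 below at an unadjusted p under 0.05. Of the 47 S phase genes, 30 were above 0 and 17 below (median 0.46), with 1 above and 0 below at that p. Of the 8 genes of cell cycle exit, such as the inhibitor Cdkn1c, 4 were on each side (median 0.03) and none passed. DESeq2 called 0 genes in these 3 lists, with 2, 5 and 0 at an unadjusted p under 0.05. Over all 21416 genes tested, that p was passed by 5.16% in edgeR and by 1754 genes in DESeq2.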

How the data were processed

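Single cells sorted by FACS were sequenced after SMART-Seq Single PLUS amplification. Per the submitters' processing notes and the study's methods, reads were demultiplexed with bcl2fastq 2.19.1, aligned with STAR 2.7.6a to GRCm38 and counted per gene by featureCounts (Subread 2.0.1) with the reverse-strand setting. The deposited values are raw counts per gene and cell, with no normalization by the authors. Whether the library keeps strand is not given in the sources used here, and exons of 12 members overlap a gene on the other strand, so reads of such pairs may be shared.

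The members and all gene lists were chosen with earlier results of these data known. CPM was taken over each cell's total. Counts were summed over the 59 cells of a plate and compared with edgeR 4.0.16 (filterByExpr, TMM, glmQLFTest, R 4.3.3), and with DESeq2 1.42.0 and limma 3.58.1 as alternatives. Nothing gives the cells of a plate as separate animals, so p-values measure the spread between 3 plates per genotype. The edgeR fit was also tested on simulated plate counts with known changes. Thinning drew 100000 counts per cell without replacement. Genes given plate values were 6 fixed members, those whose plates did not overlap between genotypes and any called. Exon lengths and overlaps came from the Gencode annotation of GRCm38. Some marker genes of the glia list are not reported here.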

Additional observations from a re-analysis of the deposited data

How the results depend on the processing

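The call of 0 members held in edgeR with RLE factors, in limma, after a cell filter (at least 100000 counts and under 20% mitochondrial), without wells A12 to D12 and without each plate in turn (0 to 0). DESeq2 called 1 member and edgeR without a filter on low counts called 1, in both cases Nek2 (log2 fold change -5.43 and -5.40). With plate number as a replicate block 0 members were called, 0 had an unadjusted p under 0.05 and the median log2 fold change was 0.45. Plates of the same number deviated together with correlations of 0.215, 0.082 and 0.077, so that not every pair was above 0.1 and the numbers were not taken to pair the plates, although each plate correlated best with its own number. The median over the members ran from -0.07 to 0.57 as single plates were left out, and the sign turned without Control plate 3.

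The direction of single members was unstable. Mki67 was -0.005 after the cell filter, and ran from -0.53 to 0.48 without single plates. It was 1.08 with the replicate block and 3.32 without the 12 cells. In limma Top2a was 0.14, Ube2c 0.28 and Tubb4b 0.39, and without the 12 cells Top2a was 0.47 and Ube2c 1.99. Values without the 12 cells are fixed in part by the choice of those cells by the members. Without single plates Top2a ran from -1.15 to 0.008, Ube2c from -1.58 to 0.33 and Tubb4b from -0.46 to 0.29.

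At 10 members in place of 15, 36.7% of CA-ERBB2 and 27.7% of Control cells counted as holding many, and at 1 count in place of 10 CPM 30.5% and 18.6% did, differences of 9.04 and 11.9 percentage points. The difference between genotypes ran from -3.95 to 7.91 percentage points as single plates were left out. It turned to -1.13 at 100 CPM and to -3.03 after thinning, and was 0 for members not used widely. Thinning left out 33 Control and 2 CA-ERBB2 cells under 100000 counts. After it 24 cells of each genotype counted, so that turn rests on the smaller number of Control cells kept. Without CA-ERBB2 plate 1 the CA-ERBB2 share was 6.78%. Members common outside division numbered 1 after thinning and 2 to 4 without single plates. Depth limits most the 35 cells under 100000 counts, and the 12 cells rich in members give little precision for any genotype difference.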

Other observations

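Pairs of members were often detected in the same cells. At 10 CPM the share of cells with both genes among the cells with either had a median of 0.325 over 703 pairs of the 38 members not used widely, with a range of 0.0645 to 0.833, and of 0.43 over 91 pairs of the 14 widely used members. These are descriptions over cells that share plates and differ in gene content. All 52 members were detected at 1 count or more in 5 of the 12 cells and in 2 of the other 342.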
